A study of Homo sapiens with 6 samples.

Results

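PEG10, OAZ1 and OAZ2 are human genes whose full-length proteins are made only when the ribosome changes reading frame at a set place in the mRNA. They were chosen by name as genes known for programmed frameshifting, and make up 3 of the 8121 genes with a translational efficiency. In the table of ribosome occupancy along transcripts, which holds 9570 genes, only PEG10 has a row, so positions were read for 1 of the 3 genes and OAZ1 and OAZ2 were described by their translational efficiency. All libraries came from HEK293 cells, a human embryonic kidney line, labelled as given a control siRNA. The series described here holds 3 libraries of ribosome-protected fragments (RPFs), the stretches of mRNA that a ribosome shields from nuclease. It also holds 3 libraries of total RNA taken from the same lysates. No other condition is in this series, although the paper sequenced knockdown cells in other experiments. The labels do not say whether the replicates were separate cultures. Errors therefore measure the spread between these libraries, which may be technical. Cycloheximide, an inhibitor of elongation, was given to the living cells shortly before harvest and was also in the wash and the lysis buffer.

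Elongating ribosomes normally keep the frame set by the start codon. PEG10 was derived from a retrotransposon, is imprinted and expressed from the paternal copy, and is best known for its role in the placenta. Its mRNA holds a Gag-like reading frame followed by an overlapping Pol-like frame, which is reached when the ribosome slips back by a base on a heptamer of the type used by retroviruses. OAZ1 and OAZ2 encode antizymes, which bind ornithine decarboxylase, the rate-limiting enzyme of polyamine synthesis, send it to the proteasome and restrain polyamine uptake. The antizyme frame is reached when the ribosome moves forward by a base at a UGA stop codon, and polyamines promote this step, so that antizyme closes a feedback loop.

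The shift sites are shown because each comparison along PEG10 is made on either side of its site, and because the antizyme pair share theirs. Capitals mark the PEG10 heptamer GGGAAAC and, in the antizymes, the last sense codon of the first frame, its UGA stop codon and the base after it. Sequences were read 5′ to 3′ on the GRCh37 genome, in RNA letters, at chr7:94293810-94293839 (plus strand), chr19:2271427-2271456 (plus strand) and chr15:64983700-64983729 (minus strand). Each lies in a coding exon, which is exon 2 of 2 in PEG10, exon 2 of 5 in OAZ1 and exon 2 of 5 in OAZ2.
PEG10: gucuucgccggcGGGAAACuccccggcccc
OAZ1: ccucgguggugcUCCUGAUgccccucaccc
OAZ2: ccucuguggugcUCCUGAUgccccucaccc

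The OAZ1 and OAZ2 windows matched at 29 of 30 bases, with G5U as the difference, counted from 1 at the 5′ end of the window and given from OAZ1 to OAZ2. The first frame of OAZ1 holds 68 sense codons before its stop codon and that of OAZ2 holds 32, so both stop codons come early. In PEG10 the first frame runs for 401 sense codons from the annotated AUG, and the heptamer begins at the third base of codon 394, 22 nt before the stop codon. The letters alone are common. GGGAAAC occurs on the sense strand of the coding sequence in 11.2% of 20132 genes and in the frame used by PEG10 in 4.12%, and UCCUGAU occurs in 14.5%. A match describes the sequence and is not a site.

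Translational efficiency, the deposited ratio of RPFs to total RNA within a replicate, differed between the members. PEG10, the Gag-derived gene, had values of 0.789, 0.722 and 0.731 in replicates 1, 2 and 3, with a mean of 0.747 ± 0.0364 (SD, n = 3). OAZ2 had 0.459, 0.463 and 0.571, with a mean of 0.498 ± 0.0636 (SD, n = 3). OAZ1, the founding member of the antizyme family, had 0.107, 0.123 and 0.110, with a mean of 0.113 ± 0.00833 (SD, n = 3). The order was therefore PEG10, OAZ2 and OAZ1 in every replicate, and no gene's values overlapped those of its neighbour. The lowest PEG10 value, 0.722, lay above the highest OAZ2 value, 0.571, and the lowest OAZ2 value, 0.459, lay above the highest OAZ1 value, 0.123.

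**Figure D1:**
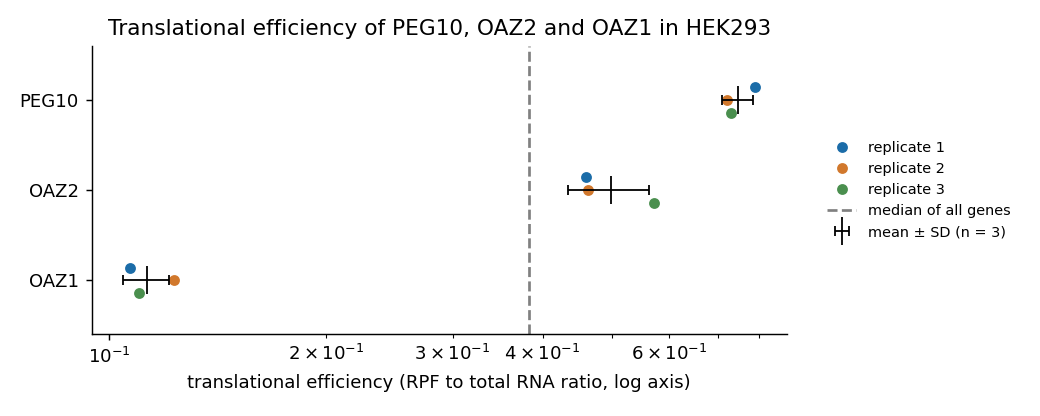
Translational efficiency (RPF to total RNA ratio, log axis) of PEG10, OAZ2 and OAZ1, with a point for each of 3 replicates, the mean and SD as a bar, and the median of all genes, 0.383, as a dashed line. The OAZ1 points lie below that line and those of PEG10 and OAZ2 above it.

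Against the median of all values, 0.383, PEG10 was higher by 0.94 ± 0.054 (SE) on the log2(value + 0.01) scale, or 1.92-fold (limma, adjusted p = 3.56e-05). OAZ2 was higher by 0.36 ± 0.080, or 1.29-fold (limma, adjusted p = 0.0085). The log2 value of OAZ1 on this scale was -1.68 ± 0.059, or 0.313 of the median with 0.01 added to both (limma, adjusted p = 6.98e-06). All 3 members therefore passed the threshold of an FDR of 0.05, where 89.3% of the 8121 genes did so, 44.7% above and 44.6% below the median. Passing is thus the rule in this table, and the size of the difference says more. Of all genes, 72.4% had a mean at or below that of PEG10, 59.7% at or below that of OAZ2 and 9.60% at or below that of OAZ1.

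The differences between members were taken within each replicate on the log2(value + 0.01) scale, and the folds are those of values with 0.01 added. The added 0.01 makes each fold smaller than the plain ratio of the values, mostly in the contrasts with OAZ1. PEG10 exceeded OAZ1 by 2.77, 2.46 and 2.62 on the log2 scale, a mean of 2.62 ± 0.155 (SD, n = 3) or 6.15-fold. OAZ2 exceeded OAZ1, its paralogue, by 2.00, 1.83 and 2.27, a mean of 2.04 ± 0.222 (SD, n = 3) or 4.10-fold. PEG10 exceeded OAZ2 by 0.77, 0.63 and 0.35, a mean of 0.58 ± 0.212 (SD, n = 3) or 1.50-fold, the smallest of the 3 differences. Each difference had the same sign in 3 of 3 replicates, and the exact two-sided sign-flip permutation test gave p = 0.25 for each (0.25 adjusted over the 3 pairs). This is the smallest p that 3 replicates allow, so no difference could pass. The ratio is a level per mRNA, and how RPFs in the first and second frames of these genes entered it is not stated in what was read here.

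Reads can be lost or gained where sequence is repeated elsewhere. No 30-base stretch of the coding sequence of PEG10 or OAZ2 occurred in a transcript of another gene, while 18.5% of those of OAZ1 did, in the pseudogene OAZ1P1 and an unnamed gene. The part of this overlap in the OAZ1 value was not tested.

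By distance over the 3 replicates, the genes nearest to PEG10 were ZBTB24, TRA2B and ATXN7L1, with means of 0.739, 0.749 and 0.737. Those nearest to OAZ2 were FKBP5, DDX55 and PSMD1, with means of 0.496, 0.501 and 0.487. Those nearest to OAZ1 were PSMB10, SLC25A10 and TXNRD1, with means of 0.115, 0.114 and 0.113. These genes match the members in translational efficiency alone, at distances of 0.036 to 0.080 on the log2(value + 0.01) scale.

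The occupancy table gives the position of RPFs along the PEG10 transcript, with the replicates combined by the authors and in-frame reads only. Its values are RPF counts scaled by library size and by mRNA abundance. The PEG10 lists hold 84 codons of the 5′UTR, 785 codons of the coding sequence (CDS) and 1345 codons of the 3′UTR. All 543 values above 0 were sums of whole multiples of 3 steps within a relative tolerance of 3e-14, which gave back 33046 reads. These fell into 3 parts of 13692, 11594 and 7760 reads, 1 for each step. The parts were taken to be the 3 RPF libraries and were not assigned to replicate numbers. Intervals on read numbers are exact Poisson intervals at 95% and cover counting error only.

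The CDS list starts at an AUG upstream of the 2 other starts in use in the annotation, a CUG at codon 43 and an AUG at codon 77. Both are shown because the reads change between them. They lie at chr7:94292755-94292781 and chr7:94292857-94292883 of GRCh37 on the plus strand, in exon 2, with the start codon in capitals.
CUG start: ccaaccgucaccCUGggucccgacugc
AUG start: uguguccccaacAUGaccgaacgaaga

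In-frame reads on PEG10 were dense from the AUG at codon 77 to near the shift site, and few lay beyond it. From codon 77 to codon 394 there were 30120 reads (29781 to 30462), 91.1% of all reads, or 94.7 per codon, and 86.2% of these 318 codons had a read. After the stop codon of the first frame, from codon 403 to codon 785, there were 471 reads (429 to 516), or 1.23 per codon, and 38.6% of the 383 codons had a read. In the 3′UTR list there were 51 reads (38 to 67.1), or 0.0379 per codon, and 2.60% of the codons had a read. The level was thus lower after the shift site and lower again after the end of the CDS list.

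**Figure D2:**
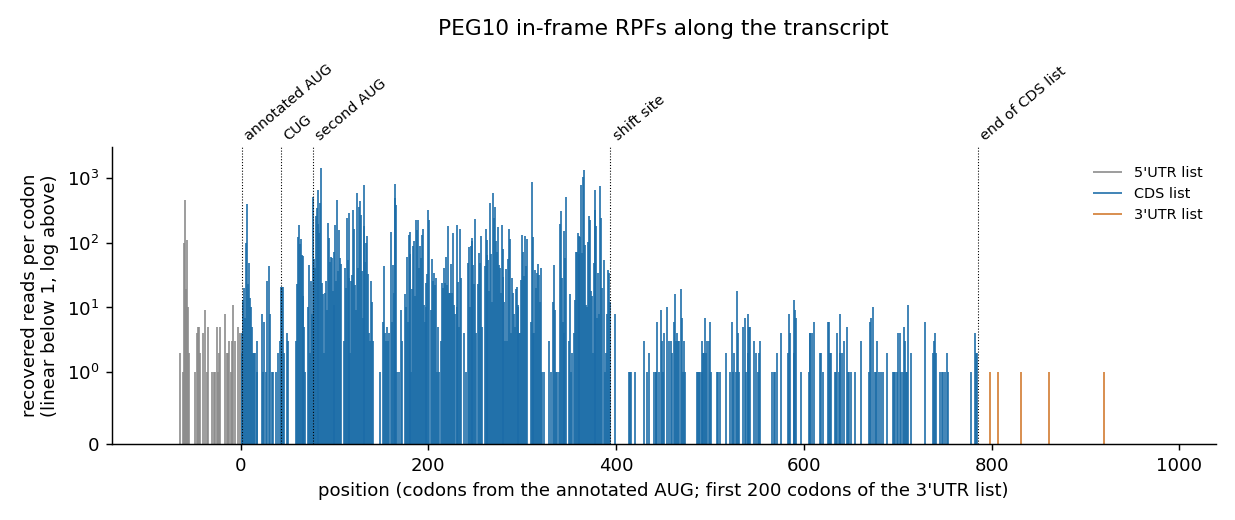
Recovered in-frame reads at each codon of PEG10 (vertical axis linear below 1 and log above), from the 5′UTR list through the CDS list to the first 200 codons of the 3′UTR list, with dotted lines at the 3 starts, the shift site and the end of the CDS list. Most reads lie between the second AUG at codon 77 and the shift site at codon 394, a low level goes on to codon 785, and few reads follow.

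The mean occupancy before the shift site, codons 1 to 394, was 0.158, and after it, codons 397 to 785, it was 0.00235. The ratio of after to before was 0.0148, or 1.48%, which is 67.5-fold lower. Within the 3 parts of the reads the percentages were 1.48, 1.84 and 1.14, with an SD of 0.353, so the fall was present in each part. Counted from the AUG at codon 77, and after the first-frame stop codon, the ratio was 1.26%, with 1.27, 1.55 and 0.962 in the parts. What frame the values after the site stand for cannot be told apart. The annotated start lies 2354 nt from the end of the second stop codon, which is 784 codons and 2 nt, and a list of 785 codons fits both a count that stays in the first frame, rounded up, and a count that follows the second frame. In the first frame 23 further stop codons lie after the first. The ratio is therefore a ratio of in-frame levels and was not taken as the efficiency of the shift.

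Just ahead of the site the level was below the mean of 94.7 reads per codon. Codon 384 held 243 reads, and codons 385 to 393 held 170 in all, between 0 and 55 each, or 18.9 per codon. Emptier stretches lay elsewhere before the site, so this low level was not particular to it. Of codons 142 to 151, only codon 149 held a read. Codon 393 held 12 reads, and codon 394, in which the heptamer begins, and codons 395 and 396, which it covers, held 0. From codon 395 to the last sense codon at 401 there were 8 reads (3.45 to 15.8), all at codon 399, and the stop codon at 402 held 0. Of 312 windows of 7 codons between codon 77 and the site, 12 held 8 reads or fewer, and the median window held 431. Windows started at every codon and so overlap, and the 12 all lay within codons 141 to 152 and 321 to 332. A stretch this empty was thus uncommon but not particular to the site. In the list as given, no pile of reads stood at the heptamer or at codon 402. With 0 reads at codon 402, the interval reaches 3.69 reads. These codons are numbered in the first frame. If the list follows the second frame after the site, first-frame reads there are left out of it. Whether reads piled up at the first-frame stop codon therefore cannot be told.

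Beyond the first-frame stop codon the level stayed low up to the end of the CDS list. Divided into 4 stretches of 95 or 96 codons, codons 403 to 785 held 145 (122 to 171), 147 (124 to 173), 109 (89.5 to 131) and 70 (54.6 to 88.4) reads. The first and second stretches lay within each other's intervals and the fourth lay below both. After codon 785 the reads dropped again. The first 96 codons of the 3′UTR list held 4 reads (1.09 to 10.2), against the 70 reads in the 96 codons before them, and these intervals did not overlap. Over 383 codons of the 3′UTR list, the length of the stretch after the first-frame stop codon, there were 8 reads (3.45 to 15.8) against 471. Per codon, the stretch after the first-frame stop codon was 31.0-fold above the whole 3′UTR list, and 26.7-, 58.2- and 20.6-fold in the 3 parts.

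**Figure D3:**
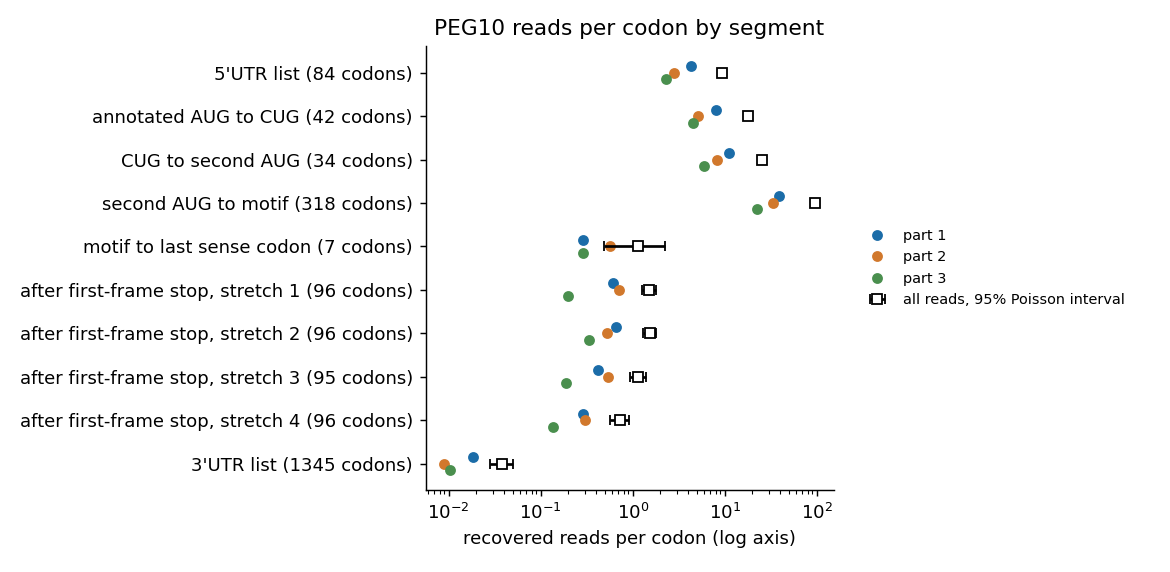
Recovered reads per codon (log axis) in 10 segments of PEG10, with a point for each of 3 parts of the reads and a square with its 95% Poisson interval for all reads. The segment from the second AUG to the motif lies at 94.7 reads per codon, the 4 stretches after the first-frame stop codon lie between 0.729 and 1.53, and the 3′UTR list lies at 0.0379.

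Upstream of codon 77 the reads were fewer and came in a few narrow peaks. From the annotated AUG to codon 42 there were 747 reads (694 to 803), or 17.8 per codon, and from the CUG at codon 43 to codon 76 there were 858 (802 to 917), or 25.2 per codon. Both levels were below the 94.7 per codon that followed, at 18.9% and 26.6% of its occupancy. In the 3 parts the first share was 20.8, 15.4 and 20.2% and the second 28.4, 24.3 and 27.1%. Codons 6 and 7 alone held 490 of the 747 reads (65.6%), and codons 60 to 66, which include the end of a run of 7 AAC codons from codon 57 to codon 63, held 671 of the 858 (78.2%). These codons were picked out after their values were seen.

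The start codons themselves differed. The annotated AUG held 4 reads. The CUG at codon 43 held 21, against 3 at the codon before it, and both codons after it also held 21. The AUG at codon 77 held 502, against 8 at the codon before it and 56 at the codon after it. The annotated AUG lies in exon 1, which ends within the codon after it, and in another annotated transcript exon 1 is 11 bases shorter and lacks this AUG. From codon 3 on both transcripts have the same sequence, so reads there cannot be assigned to either of them.

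Between codon 77 and the shift site the reads were uneven. The mean occupancy was 0.186 and the median 0.0466. The 5 highest codons were 86 (UCU) with 1444 reads, 366 (AGA) with 1316, 365 (CGC) with 1050, 310 (UGC) with 854 and 165 (AAC) with 810. Together these 5 codons held 5474 of the 32204 CDS reads, and codon 86 alone held 4.48%. Without the highest codon of each side the ratio across the shift site was 0.0149.

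The 5′UTR list held 791 reads (737 to 848), or 9.42 per codon, and its mean occupancy was 23.0% of that of the CDS list. Of these reads 682 (86.2%) lay in 4 codons, 60 to 57 codons before the annotated AUG, with 453 at the codon 59 before it. The other 80 codons shared 109 reads. As a share of the CDS mean the 5′UTR was 25.6, 19.3 and 23.9% in the 3 parts. The 3′UTR list stood at 0.0937% of the CDS mean, with 0.110, 0.0617 and 0.108% in the parts.

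The background was measured by dividing every CDS over 300 nt at the same relative position as the PEG10 site. Among 7849 transcripts with at least 100 codons that had a value above 0, the median ratio of the mean after that position to the mean before it was 0.960, and from the 5th to the 95th percentile it ran from 0.433 to 2.34. PEG10, at 0.0148, was the lowest. A ratio under 0.1 was found in 12 transcripts, or 0.153%. The next were RPS10-NUDT3, a readthrough of neighbouring genes, at 0.0168, SF3A2, a subunit of a splicing factor, at 0.0278, and FPGT-TNNI3K, another readthrough, at 0.0328. Without the minimum of 100 codons, 9 of 9333 transcripts were at or below PEG10. In PEG10 nearly all of the part after the site lies beyond the first-frame stop codon, while an ordinary CDS stays in a single reading frame. The rank of PEG10 is therefore a description and was not tested. In its other levels PEG10 was nearer to the rest. Its CDS mean of 0.0806 had 77.1% of 9351 transcripts at or below it, its 5′UTR share of 0.230 had 85.5% of 9347 with a median of 0.0287, and its 3′UTR share of 0.000937 had 70.2% with a median of 0.000166. The PEG10 CDS mean takes in the 383 codons after the first-frame stop codon, at 0.00234, against 0.186 from codon 77 to codon 394. This lowers its CDS mean and raises both UTR shares beside those of other transcripts.

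**Figure D4:**
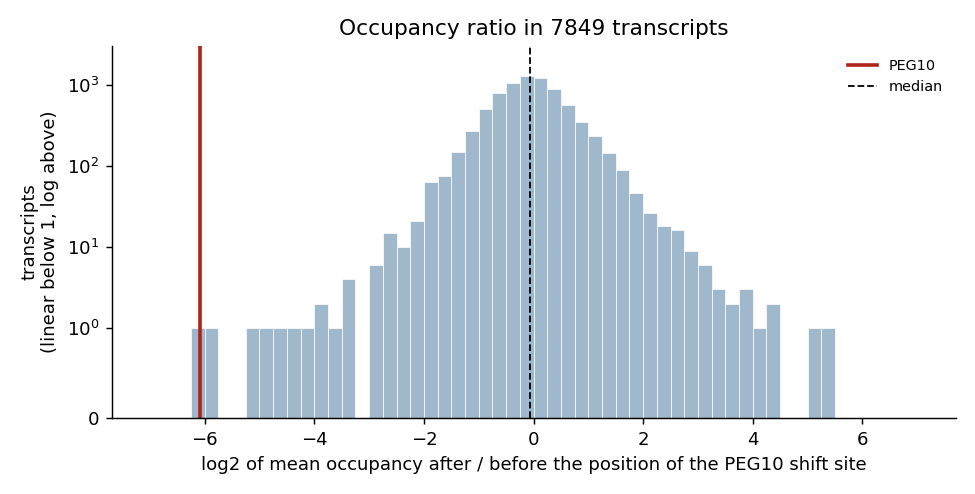
Number of transcripts (vertical axis linear below 1 and log above) by the log2 ratio of mean occupancy after to before the relative position of the PEG10 shift site, for 7849 transcripts with at least 100 covered codons. The red line is PEG10, at a ratio of 0.0148, and the dashed line is the median, 0.960.

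The other genes of polyamine metabolism showed no common level. Of 20 genes listed, 14 had a translational efficiency, and 7 of these were higher than the median, 5 lower and 2 not called (limma, FDR of 0.05), where 44.7% of all genes were higher and 44.6% lower. Their median log2 difference was 0.07, against -0.002 for all genes. ODC1, the ornithine decarboxylase that antizymes bind, stood at 0.529 ± 0.00481 (SD, n = 3), within the range of OAZ2, and AZIN1, the inhibitor that binds antizyme in place of the enzyme, at 0.336 ± 0.0201. Of the synthases, SRM, which makes spermidine, stood at 0.677 ± 0.0365 and SMS, which makes spermine, at 1.00 ± 0.0378. AMD1, the decarboxylase that supplies both synthases, stood at 0.453 ± 0.0307. MAT2A, which makes S-adenosylmethionine, was the highest of the list at 2.30 ± 0.0975.

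SAT1, which acetylates polyamines for breakdown and export, was lower than the median at 0.207 ± 0.0164 (limma, adjusted p = 8.79e-05). EIF5A, the translation factor that carries hypusine made from spermidine, was at 1.23 ± 0.0637, while DHPS and DOHH, the enzymes that make hypusine, were at 0.0864 ± 0.0103 and 0.292 ± 0.0465. DHPS was the only gene of the 14 below OAZ1, and 8 of the 14 lay below OAZ2. SMS, EIF5A, DHPS, MTAP, AMD1 and MAT2A share 70.7, 58.1, 93.7, 39.8, 28.7 and 14.1% of their 30-base stretches with other genes. Their values may be affected by this, which was not tested. In the table of occupancy, 17 of the 20 genes had a row, and their ratios at the relative position of the PEG10 site ran from 0.268 to 2.17 with a median of 1.01, with no minimum of covered codons. For the 14 of them with at least 100 covered codons the range was 0.475 to 2.17.

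The list of Gag-derived and PNMA families other than PEG10 held 25 symbols, among them SIRH, which names a family and not a single gene. Of these, 12 had a translational efficiency. Of the 12, 8 were higher than the median and 4 lower (limma, FDR of 0.05), against the same shares of 44.7% and 44.6% over all genes. Their median log2 difference was 0.91, against -0.002 for all genes and 0.94 for PEG10, and 6 of the 12 lay below PEG10. LDOC1, a small Gag-derived gene, was the highest at 12.5 ± 1.97 (SD, n = 3), followed by the RTL8 genes RTL8A, RTL8C and RTL8B at 5.92 ± 0.152, 3.07 ± 0.221 and 3.03 ± 0.152. The RTL8 genes share 43.5, 22.7 and 48.6% of their 30-base stretches with each other, so reads may be divided among them. ARC, a neuronal gene whose protein forms capsids, was closest to PEG10 in the mean at 0.798 ± 0.0949, and the paraneoplastic antigen genes PNMA1 and PNMA2 were at 1.79 ± 0.137 and 0.665 ± 0.0310. CCDC8 and RTL10 were the lowest at 0.141 ± 0.0160 and 0.183 ± 0.0136. For 13 genes of this list with a CDS over 300 nt in the occupancy table, ratios at the relative position of the PEG10 site ran from 0.231 to 1.89 with a median of 0.924, with no minimum of covered codons. For the 8 with at least 100 covered codons the range was 0.584 to 1.89. All 13 ratios were above the 0.0148 of PEG10, whose codons after the site lie mostly beyond the first-frame stop codon.

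**Figure D5:**
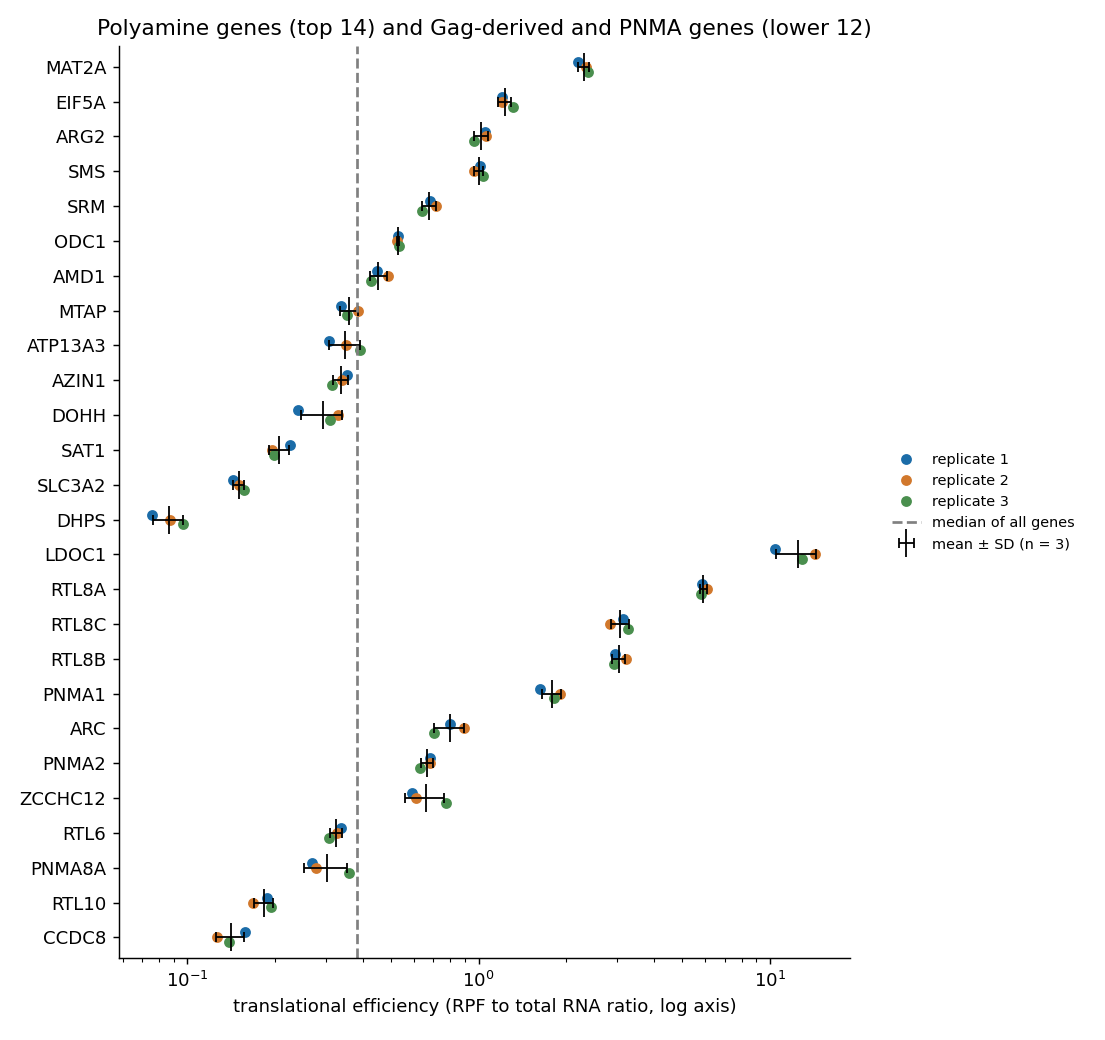
Translational efficiency (RPF to total RNA ratio, log axis) of 14 genes of polyamine metabolism and 12 Gag-derived and PNMA genes, each list in order of its mean, with points for 3 replicates, bars for the mean and SD, and a dashed line at the median of all genes. The polyamine genes run from DHPS at 0.0864 to MAT2A at 2.30, and the Gag-derived and PNMA genes from CCDC8 at 0.141 to LDOC1 at 12.5.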

How the data were processed

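RPFs and total RNA of HEK293 cells were sequenced in 3 libraries each. The authors trimmed RPF reads with Cutadapt, removed PCR duplicates, set aside rRNA and tRNA reads and aligned the rest to the hg19 transcriptome. The submitters' processing notes name cutadapt 1.16, Bowtie 1.1.2, TopHat2 2.1.1 and HTSeq 0.9.1, while the paper's methods name Hisat2 for total RNA. The deposited translational efficiency is a linear ratio for 8121 genes, of unstated formula. The deposited occupancy is the authors' scaled RPF value per codon, in frame, replicates combined. For 31 transcripts a CDS list broken over lines was rejoined, and a value damaged at the break was set to missing.

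Translational efficiency was tested with limma 3.58.1 (R 4.3.3) on log2(ratio + 0.01) minus their overall median, adjusted over all genes by Benjamini-Hochberg, without a filter on low values. The ratio pairs the RPF and total RNA of each replicate, which came from the same lysate. PEG10 reads were recovered from the 3 steps in its values, and both procedures were tested on simulated data. The software was Python 3.11.15 with numpy 2.4.6, scipy 1.17.1 and pandas 2.3.3. Shift sites and shared 30-base stretches came from GENCODE 44 on GRCh37, the build of hg19. Depth of the single libraries was not used here. The genes, lists and comparisons were chosen with earlier results of these data known. Named genes are the members, the listed genes and the 3 nearest genes to each member by Euclidean distance over the replicates. Replicates were left out in turn, and the pseudocount, filter, replicate medians and codon windows were changed.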

Additional observations from a re-analysis of the deposited data

How the results depend on the processing

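Of 67 alternatives, 62 left the value within the limits set for it and none reversed a direction. With a pseudocount of 0.1 the log2 difference fell to 1.99 between PEG10 and OAZ1 and to 1.48 between OAZ2 and OAZ1, as a larger pseudocount compresses low values. At this pseudocount the log2 values against the median were 0.81 for PEG10, -1.18 for OAZ1 and 0.3 for OAZ2. The 3′UTR share of the CDS mean on PEG10 was 0.00150 in the first 50 codons, and the 5′UTR share was 0.0628 in the last 17 codons and 0.0984 without the highest codon, so that the 5′UTR value rests on its narrow peak. Subtracting the median of each replicate (the replicate block) gave 7265 genes different from the median, against 7249, and log2 differences of 0.95 for PEG10, -1.67 for OAZ1 and 0.36 for OAZ2, and it changed no call of these genes. Leaving out a replicate gave 7015 to 7091 genes, 0.90 to 0.97 for PEG10, -1.74 to -1.64 for OAZ1 and 0.27 to 0.41 for OAZ2, with adjusted p (limma) of at most 0.0208. Among the listed genes, the polyamine genes became 6 higher and 4 lower without replicate 2 and 7 higher and 4 lower without replicate 3, from AMD1 and AZIN1, and the Gag-derived and PNMA genes lower than the median became 3 in place of 4 without any 1 replicate, from PNMA8A or RTL6. Leaving out a part of the PEG10 reads gave 0.0131 to 0.0166 for the ratio across the shift site. The last alternative, and the start at codon 77, were chosen after seeing the data. With the replicates combined, occupancy has no replicate error, and low read numbers limit what can be said of single codons after the site.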
